A study of Homo sapiens with 12 samples.

Results

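The genes described here act in fatty acid oxidation and in the peroxisome. A list of 55 genes was matched by symbol to the expression tables, and 35 of them were among the 8842 genes listed for every library. By the place of their proteins, these were 17 of 24 mitochondrial members, 9 of 14 peroxisomal enzymes and transporters, 4 of 11 peroxins, 3 of 4 members found in both organelles and 2 of 2 members of neither. HepG2 and LM3 are established lines of human liver cancer cells. Their RNA was sequenced 48 h after they received an siRNA that targets FASRL, a long noncoding RNA (siFASRL), or a control siRNA without this target (siNC). Each of the 4 groups (HepG2 siFASRL, HepG2 siNC, LM3 siFASRL and LM3 siNC) had 3 replicates. Nothing in the labels says that replicates were separate cultures, so the p-values below measure the spread between these libraries, which may be technical. FASRL itself was not analysed here, so the knockdown could not be checked in these values. The unit is the authors' normalized RSEM value, which corrects for gene length and is not a count, so the sequencing depth is unknown.

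Fatty acids are shortened by β-oxidation in the mitochondrion and in the peroxisome. Long chains enter the mitochondrion as carnitine esters, and the electrons released by acyl-CoA dehydrogenases pass through the electron transfer flavoprotein to the respiratory chain. The peroxisome starts on very long and branched chains with an oxidase, hands shortened chains over as carnitine esters, and takes its enzymes up with the help of peroxins, while the liver turns much of the acetyl-CoA from oxidation into ketone bodies.

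The labelled cell type was checked with marker genes. Of 10 hepatocyte markers 8 were listed, and their summed value was 3664 to 4049 in HepG2 siNC and 1735 to 1827 in HepG2 siFASRL, with SERPINA1 the most abundant. In LM3 the same sum was 14.6 to 17.8 under siNC and 6.24 to 7.69 under siFASRL, with HNF4A the most abundant, and 6 of the 8 markers under siNC and 7 under siFASRL were below 1. ALB was at 0.06, 0.62 and 0.40 in LM3 siNC and at 0.19, 0.00 and 0.00 in LM3 siFASRL, so that this defining hepatocyte marker was at or near 0 in LM3. The 4 cholangiocyte markers summed to 508 to 554 in HepG2 siNC and 1040 to 1095 in HepG2 siFASRL, and to 188 to 216 and 357 to 368 in LM3, with KRT7 the most abundant. That rise was one of KRT7, and of KRT19 in HepG2: EPCAM went from 33.3, 30.8 and 30.3 to 15.5, 15.0 and 15.3 in HepG2 and from 4.84, 5.77 and 5.50 to 3.75, 3.67 and 4.19 in LM3. SOX9 went from 37.4, 35.7 and 29.5 to 26.1, 25.2 and 25.6 in HepG2, and SOX9 and KRT19 were under 1 in all LM3 libraries. The 5 listed of 6 fibroblast markers, most abundantly COL3A1 or COL1A1, summed to 70.6 to 72.2 in HepG2 siNC and 32.3 to 35.4 in HepG2 siFASRL, and to 13.2 to 15.1 and 4.69 to 5.86 in LM3. Of the endothelial markers only VWF was listed, at 0.35 or less, and of the leukocyte markers only CD68, at 13.4 to 54.3. The hepatocyte and fibroblast sums were thus lower after siFASRL in both lines and the cholangiocyte markers went in both directions, and their part in the results below was not tested. Each sample is bulk RNA of a single cultured cell line. In such samples, fewer cells that express a marker and less of its RNA per cell cannot be told apart.

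Most listed members were lower after siFASRL in both lines. In HepG2, 24 of 35 tested members fell and 9 rose (limma, adjusted p under 0.05), against 44.3% of all 8144 tested genes lower and 44.8% higher. In LM3, 25 of 34 tested members fell and 5 rose, against 43.5% lower and 33.9% higher among 7483 tested genes. The 5 became 2, 2 and 1 without LM3 siFASRL replicates 1, 2 and 3, 3 without LM3 siNC replicate 2 and 3 with a pseudocount of 0.1. They became 7 with median-of-ratios scaling and 7 without LM3 siNC replicate 1. With median-of-ratios scaling, 2769 of all LM3 genes were lower and 3140 higher, in place of 3254 and 2536. ACOX2 was the member left out of the LM3 test, since it stayed under the filter there. The median log2 fold change of the members was -0.52 in HepG2 and -0.54 in LM3, beside 0.10 and -0.06 over all tested genes. These shares refer to listed genes only, and where paired values below name no line, HepG2 comes first. Groups without overlap were common, so that a lack of overlap named below is not particular to a member. In HepG2, siFASRL lay wholly below siNC for 3596 and wholly above it for 3699 of the 8144 tested genes. The members' counts were 24 and 10 of 35. In LM3 these counts were 3335 and 2661 of 7483 genes, and 25 and 5 of 34 members. Genes with small falls in HepG2 were nearly missing from the list: 3 of 6367 genes (0.0471%) had a log2 ratio from -0.20 to -0.09 there, against 392 of 5937 (6.6%) in LM3.

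Large changes were few. A log2 fold change of 1 or more in size was reached by 3 members in HepG2 (ACAA2, ACADSB and CROT) and 3 in LM3 (BDH1, CRAT and PECR), all of them lower. Among all tested genes this rule took 6.79% lower and 3.61% higher in HepG2, and 6.2% lower and 1.42% higher in LM3. The members' shares were 8.57% and 8.82% lower, close to the background, and no member was higher by this rule in either line. With a pseudocount of 0.1 in place of 1, tried after the data were seen, 6 members passed it in HepG2 (BDH1, PECR and ACOX2 besides) and 5 in LM3 (CROT and ACADM besides), where 11.8% and 10.1% of all tested genes were lower by it.

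Of the 34 members tested in both lines, 22 fell in both, 4 rose in both and 2 went in opposite directions. Over 7349 genes tested in both lines, these shares were 36%, 29.6% and 5.31%. Without LM3 siFASRL replicate 1, the LM3 calls of ECI1, PEX14, PEX19 and ETFA were lost. Some of these calls were also lost without other LM3 libraries. This held for ECI1 and PEX19 without siFASRL replicate 2 or 3 and for PEX14 without siFASRL replicate 3. It also held for ETFA without siFASRL replicate 2, and for PEX19 and ETFA without siNC replicate 2 or 3. The members' counts for a rise in both lines and for opposite directions thus depended on single libraries, not on siFASRL replicate 1 alone. The effects of the members in HepG2 and LM3 had a Pearson's r of 0.806 across 34 genes, and the same value over all 7349 genes was 0.794. Genes within a library are not independent replicates, and this is given as a description.

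**Figure D1:**
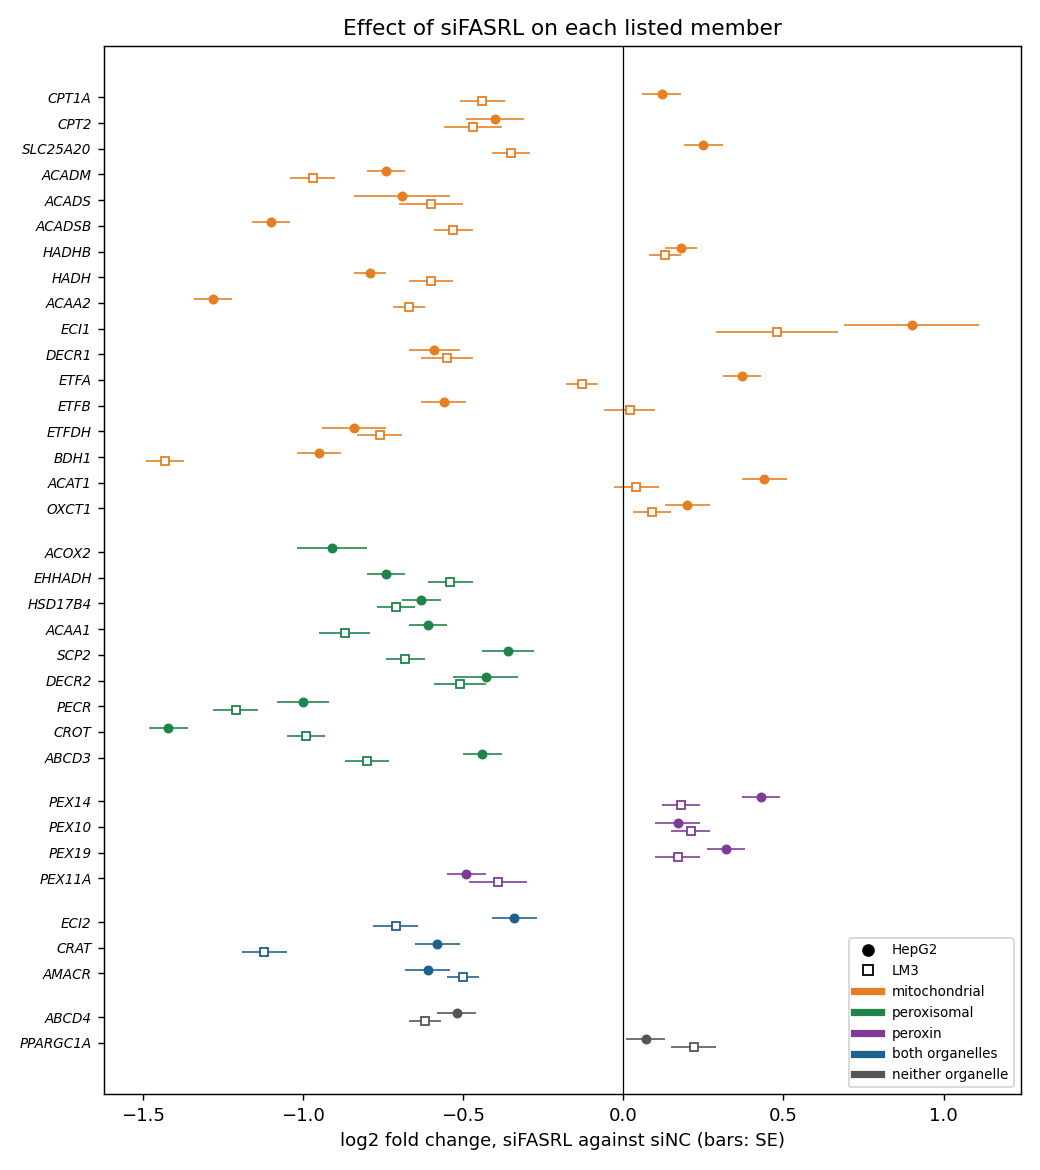
The log2 fold change of each listed member (horizontal axis, siFASRL against siNC, bars SE, 3 libraries against 3) is drawn for HepG2 (filled circles) and LM3 (open squares), with color for the place of the protein. All 9 peroxisomal members lie left of 0, while the mitochondrial members lie on both sides, from -1.28 to 0.90 in HepG2 and from -1.43 to 0.48 in LM3.

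On this list, mitochondrial and peroxisomal members differed in how uniform they were. The peroxins are counted apart, and 3 of the 4 listed rose in each line. All 9 peroxisomal members fell in HepG2 and all 8 that could be tested fell in LM3, with medians of -0.63 and -0.75. Of the 17 mitochondrial members, 10 fell and 6 rose in HepG2, and 12 fell and 1 rose in LM3, with medians of -0.56 and -0.47. Among all tested genes, 44.3% fell and 44.8% rose in HepG2 and 43.5% fell and 33.9% rose in LM3, with medians of 0.10 and -0.06. The difference between the groups of members was not tested. Scaling by the median of ratios raised the median of all LM3 genes by 0.11, and the LM3 medians became -0.36 for mitochondrial and -0.64 for peroxisomal members, which is the same shift. With quantile normalization these LM3 medians were -0.33 and -0.76, so the groups of members did not move together there.

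As a summed level, the 9 peroxisomal members reached 185, 184 and 183 in HepG2 siNC and 113, 122 and 123 in HepG2 siFASRL. In LM3 their sum was 190.0, 193 and 192 under siNC and 106, 113 and 116 under siFASRL. The sum of the 17 mitochondrial members was 577, 594 and 578 in HepG2 siNC and 483, 533 and 518 in HepG2 siFASRL. In LM3 it was 424, 460 and 453 under siNC and 371, 392 and 396 under siFASRL. Every siFASRL library lay below every siNC library of its line for both sums. For the mitochondrial sum in HepG2 this rested on ETFB, without which the 16 other members summed to 394, 397 and 406 in siNC and 363, 404 and 394 in siFASRL, which overlap. ETFB alone made up 31.5% of the mitochondrial sum in HepG2 siNC, and SCP2 made up 30.7% of the peroxisomal sum in LM3 siNC.

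**Figure D2:**
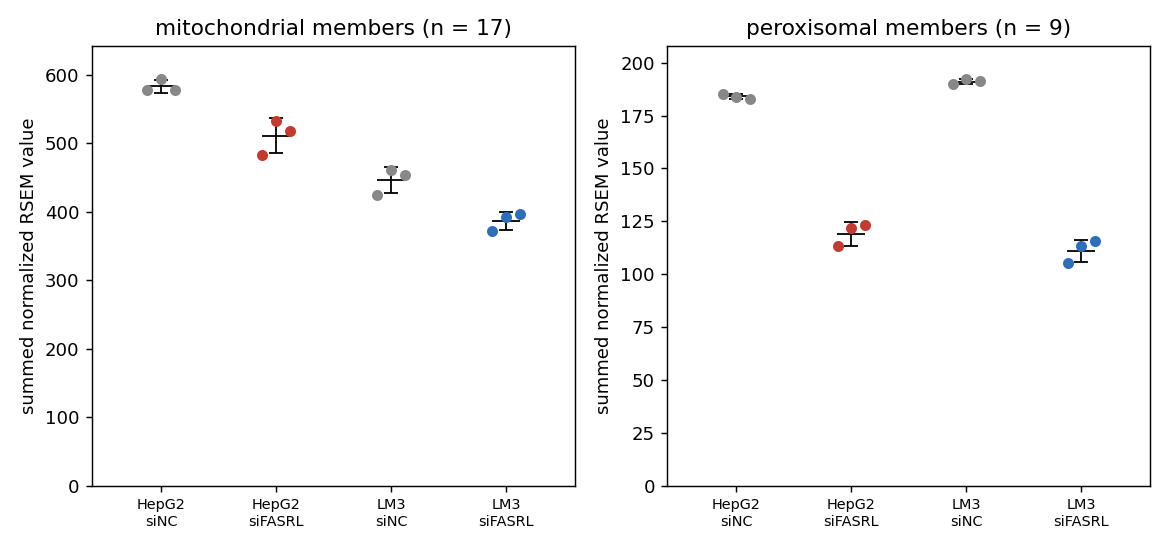
The summed normalized RSEM value of the mitochondrial members (left, 17 genes) and of the peroxisomal members (right, 9 genes) is shown for each library as a point, with the group mean and SD in black (n = 3). The peroxisomal sums were 184 ± 1.19 in HepG2 siNC and 119 ± 5.46 in HepG2 siFASRL, and 191 ± 1.22 and 111 ± 5.20 in LM3.

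The carnitine shuttle was listed in full, and CPT1A and SLC25A20, though not CPT2, differed between the lines in their response. CPT1A, which makes acylcarnitines at the outer mitochondrial membrane, was at 15.2, 15.5 and 14.4 in HepG2 siNC and 16.2, 16.9 and 16.3 in HepG2 siFASRL. In LM3 it was at 14.7, 16.9 and 18.0 under siNC and 11.7, 11.9 and 12.1 under siFASRL. All HepG2 siFASRL libraries were above all HepG2 siNC libraries, and the order was the opposite in LM3. The log2 fold change was 0.12 (SE 0.06) in HepG2, which missed the threshold (limma adjusted p = 0.0593), and -0.44 (SE 0.07) in LM3 (limma adjusted p = 5.41e-04). The HepG2 value passed the limma test after centring on the near-empty stretch (0.27, adjusted p = 0.00103), with quantile normalization (0.14, adjusted p = 0.0384) and without HepG2 siNC replicate 2 (0.14, adjusted p = 0.0437).

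SLC25A20 carries acylcarnitines across the inner membrane in exchange for carnitine. Its level was 4.59, 4.96 and 4.28 in HepG2 siNC and 5.40, 5.95 and 5.67 in HepG2 siFASRL, and 12.1, 12.6 and 13.9 in LM3 siNC and 9.5, 9.73 and 10.4 in LM3 siFASRL. The groups did not overlap in either line, with the knockdown libraries high in HepG2 and low in LM3. SLC25A20 rose by a log2 fold change of 0.25 (SE 0.06, limma adjusted p = 0.00427) in HepG2 and fell by 0.35 (SE 0.06, limma adjusted p = 0.00112) in LM3. The values were 0.46 and -0.21 with quantile normalization, and 0.40 in HepG2 after centring. CPT2, which returns the chains to CoA inside the mitochondrion, was at 9.61, 11.8 and 10.3 in HepG2 siNC and 7.07, 8.59 and 7.55 in HepG2 siFASRL, and at 13.1, 16.1 and 17.1 in LM3 siNC and 11.1, 10.7 and 10.7 in LM3 siFASRL. Here the siFASRL libraries were the low ones in both lines. CPT2 fell by 0.40 in HepG2 (SE 0.09, limma adjusted p = 0.00149) and by 0.47 in LM3 (SE 0.09, limma adjusted p = 0.00118), with a HepG2 value of -0.25 after centring.

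All 3 listed acyl-CoA dehydrogenases of the mitochondrion fell in both lines, and 4 of the 7 on the list were not analysed here. ACADSB, which acts on short branched chains from isoleucine, was at 12.6, 11.5 and 12.2 in HepG2 siNC and 5.23, 4.84 and 5.30 in HepG2 siFASRL, and at 3.75, 3.16 and 3.36 in LM3 siNC and 2.0, 2.06 and 2.09 in LM3 siFASRL. Its level in LM3 siNC was below every HepG2 library, knockdown included. The log2 fold change was -1.10 (SE 0.06, limma adjusted p = 2.57e-07) in HepG2 and -0.53 (SE 0.06, limma adjusted p = 5.81e-05) in LM3, and the LM3 value was -0.14 with an adjusted p of 0.0807 after quantile normalization. ACADM, for medium chains, was at 24.6, 23.1 and 25.9 in HepG2 siNC and 13.7, 14.8 and 14.3 in HepG2 siFASRL. In LM3 it was at 23.8, 22.6 and 20.6 under siNC and 11.1, 10.1 and 11.4 under siFASRL. ACADM fell by 0.74 in HepG2 (SE 0.06, limma adjusted p = 3.38e-06) and by 0.97 in LM3 (SE 0.07, limma adjusted p = 4.66e-06), with no overlap of groups in either line. ACADS, for short chains, had a wider spread, from 3.0 to 4.85 in HepG2 siFASRL and 5.89 to 8.69 in HepG2 siNC, and fell by 0.69 in HepG2 and by 0.60 in LM3.

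The steps after the dehydrogenase did not move together. ACAA2, the mitochondrial thiolase, was at 44.4, 40.6 and 44.5 in HepG2 siNC and 17.4, 16.9 and 17.1 in HepG2 siFASRL. In LM3 it was at 33.4, 34.5 and 35.1 under siNC and 20.0, 21.6 and 21.9 under siFASRL. The knockdown libraries were low in both lines, with the wider gap in HepG2. ACAA2 fell by 1.28 (SE 0.06, limma adjusted p = 9.75e-08) in HepG2 and by 0.67 (SE 0.05, limma adjusted p = 8.78e-06) in LM3. HADH, the short-chain hydroxyacyl-CoA dehydrogenase, fell by 0.79 and by 0.60. HADHB, a subunit of the trifunctional protein, was at 48.6, 48.1 and 50.1 in HepG2 siNC and 54.9, 56.0 and 56.0 in HepG2 siFASRL, and at 48.7, 48.9 and 48.8 in LM3 siNC and 50.6, 54.0 and 55.9 in LM3 siFASRL. The siFASRL libraries were higher in both lines, and the change was small. HADHB rose by a log2 fold change of 0.18 (SE 0.05, limma adjusted p = 0.00813) in HepG2, a call lost after quantile normalization (0.05, adjusted p = 0.339) and 0.33 after centring, and its value was 0.13 (SE 0.05, limma adjusted p = 0.0522) in LM3. The LM3 value passed with median-of-ratios scaling (0.25, limma adjusted p = 0.00267), without a filter (adjusted p = 0.0344), in the joint fit (adjusted p = 0.023) and without siFASRL replicate 1 or siNC replicate 1 (adjusted p = 0.0305 and 0.046), whereas it was 0.05 with quantile normalization. Its partner HADHA was not analysed here.

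For unsaturated chains, the mitochondrial members ECI1 and DECR1 went apart. ECI1, an enoyl-CoA isomerase, was at 17.5, 29.9 and 19.0 in HepG2 siNC and 31.0, 48.8 and 46.1 in HepG2 siFASRL, and at 24.1, 43.7 and 39.6 in LM3 siNC and 47.5, 52.2 and 46.5 in LM3 siFASRL. Replicates of ECI1 differed widely, and the knockdown libraries were nonetheless all above the controls of their line. ECI1 rose by 0.90 (SE 0.21, limma adjusted p = 0.00217) in HepG2. The LM3 value was 0.48 (SE 0.19, limma adjusted p = 0.0439) and 0.22 without LM3 siNC replicate 1. This call was lost without any one of the LM3 siFASRL replicates, with adjusted p of 0.0883, 0.116 and 0.0851 without replicates 1, 2 and 3. It was also lost without a filter, in the joint fit, with a pseudocount of 0.1 and with quantile normalization (limma adjusted p = 0.111, 0.0772, 0.0584 and 0.0943). DECR1, a dienoyl-CoA reductase, fell by 0.59 in HepG2 and by 0.55 in LM3.

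Electron transfer from the dehydrogenases needs ETFA and ETFB, the subunits of the flavoprotein, and ETFDH, which passes the electrons to ubiquinone. ETFA was at 66.1, 62.8 and 67.3 in HepG2 siNC and 82.3, 85.4 and 86.8 in HepG2 siFASRL, and at 80.0, 80.5 and 81.8 in LM3 siNC and 71.1, 73.5 and 76.8 in LM3 siFASRL. It was thus high after siFASRL in HepG2 and low in LM3, with no overlap in either. ETFA rose by 0.37 (SE 0.06, limma adjusted p = 1.55e-04) in HepG2. In LM3 the value was -0.13 (SE 0.05, limma adjusted p = 0.0431), and with median-of-ratios scaling it was -0.01 with an adjusted p of 0.836 and with a pseudocount of 0.1 the adjusted p was 0.0517. Quantile normalization gave 0.22 in HepG2 and -0.24 in LM3. The LM3 call was also lost without LM3 siFASRL replicate 1 or 2 or LM3 siNC replicate 2 or 3 (adjusted p = 0.147, 0.113, 0.0899 and 0.114). With the replicate block it was lost too (limma adjusted p = 0.0749).

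ETFB behaved unlike its partner. Its level was 183, 197 and 172 in HepG2 siNC and 120, 129 and 124 in HepG2 siFASRL, against 31.2, 35.5 and 37.9 in LM3 siNC and 34.2, 37.1 and 34.5 in LM3 siFASRL. The HepG2 groups were apart and the LM3 groups overlapped. ETFB fell by 0.56 (SE 0.07, limma adjusted p = 2.97e-05) in HepG2, and the LM3 value was 0.02 (SE 0.08, limma adjusted p = 0.834). ETFDH was at 12.2, 10.3 and 13.7 in HepG2 siNC and 7.01, 5.63 and 6.19 in HepG2 siFASRL, and at 10.3, 9.76 and 8.58 in LM3 siNC and 4.82, 5.41 and 5.36 in LM3 siFASRL. The siFASRL libraries were the low ones throughout. ETFDH fell by 0.84 (SE 0.10, limma adjusted p = 3.57e-05) in HepG2 and by 0.76 (SE 0.07, limma adjusted p = 2.18e-05) in LM3.

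The ketone body enzymes were split. BDH1, which interconverts acetoacetate and hydroxybutyrate, was at 5.69, 5.91 and 6.29 in HepG2 siNC and 2.83, 2.34 and 2.62 in HepG2 siFASRL, and at 10.7, 11.3 and 10.6 in LM3 siNC and 3.22, 3.80 and 3.25 in LM3 siFASRL. Its control level was higher in LM3, and the knockdown libraries of both lines came to lie near each other. BDH1 fell by 0.95 (SE 0.07, limma adjusted p = 1.10e-06) in HepG2 and by 1.43 (SE 0.06, limma adjusted p = 5.29e-07) in LM3. ACAT1, the acetoacetyl-CoA thiolase, was at 36.5, 36.8 and 37.5 in HepG2 siNC and 45.7, 54.5 and 52.0 in HepG2 siFASRL, and at 49.0, 49.5 and 45.8 in LM3 siNC and 46.0, 49.1 and 53.2 in LM3 siFASRL. The groups were apart in HepG2 and overlapped in LM3. ACAT1 rose by 0.44 (SE 0.07, limma adjusted p = 2.20e-04) in HepG2, with 0.04 (SE 0.07, limma adjusted p = 0.625) in LM3.

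OXCT1 activates acetoacetate for use as fuel and is low in normal liver. It was at 36.1, 31.7 and 37.4 in HepG2 siNC and 40.1, 41.7 and 39.4 in HepG2 siFASRL, and at 8.38, 7.44 and 7.59 in LM3 siNC and 8.43, 8.20 and 8.39 in LM3 siFASRL. The line made more difference to its level than the siRNA. OXCT1 rose by 0.20 in HepG2 (SE 0.07, limma adjusted p = 0.0202) and by 0.35 after centring, a call lost after quantile normalization (0.10, adjusted p = 0.188) and without HepG2 siFASRL replicate 2 or HepG2 siNC replicate 2 (0.18 and 0.13, adjusted p = 0.0675 and 0.0532), and its LM3 value was 0.09 (SE 0.06, limma adjusted p = 0.186). That LM3 value passed with median-of-ratios scaling (0.19, limma adjusted p = 0.0131), quantile normalization (0.27, adjusted p = 0.0035) and without LM3 siNC replicate 1 (0.13, adjusted p = 0.0175).

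**Figure D3:**
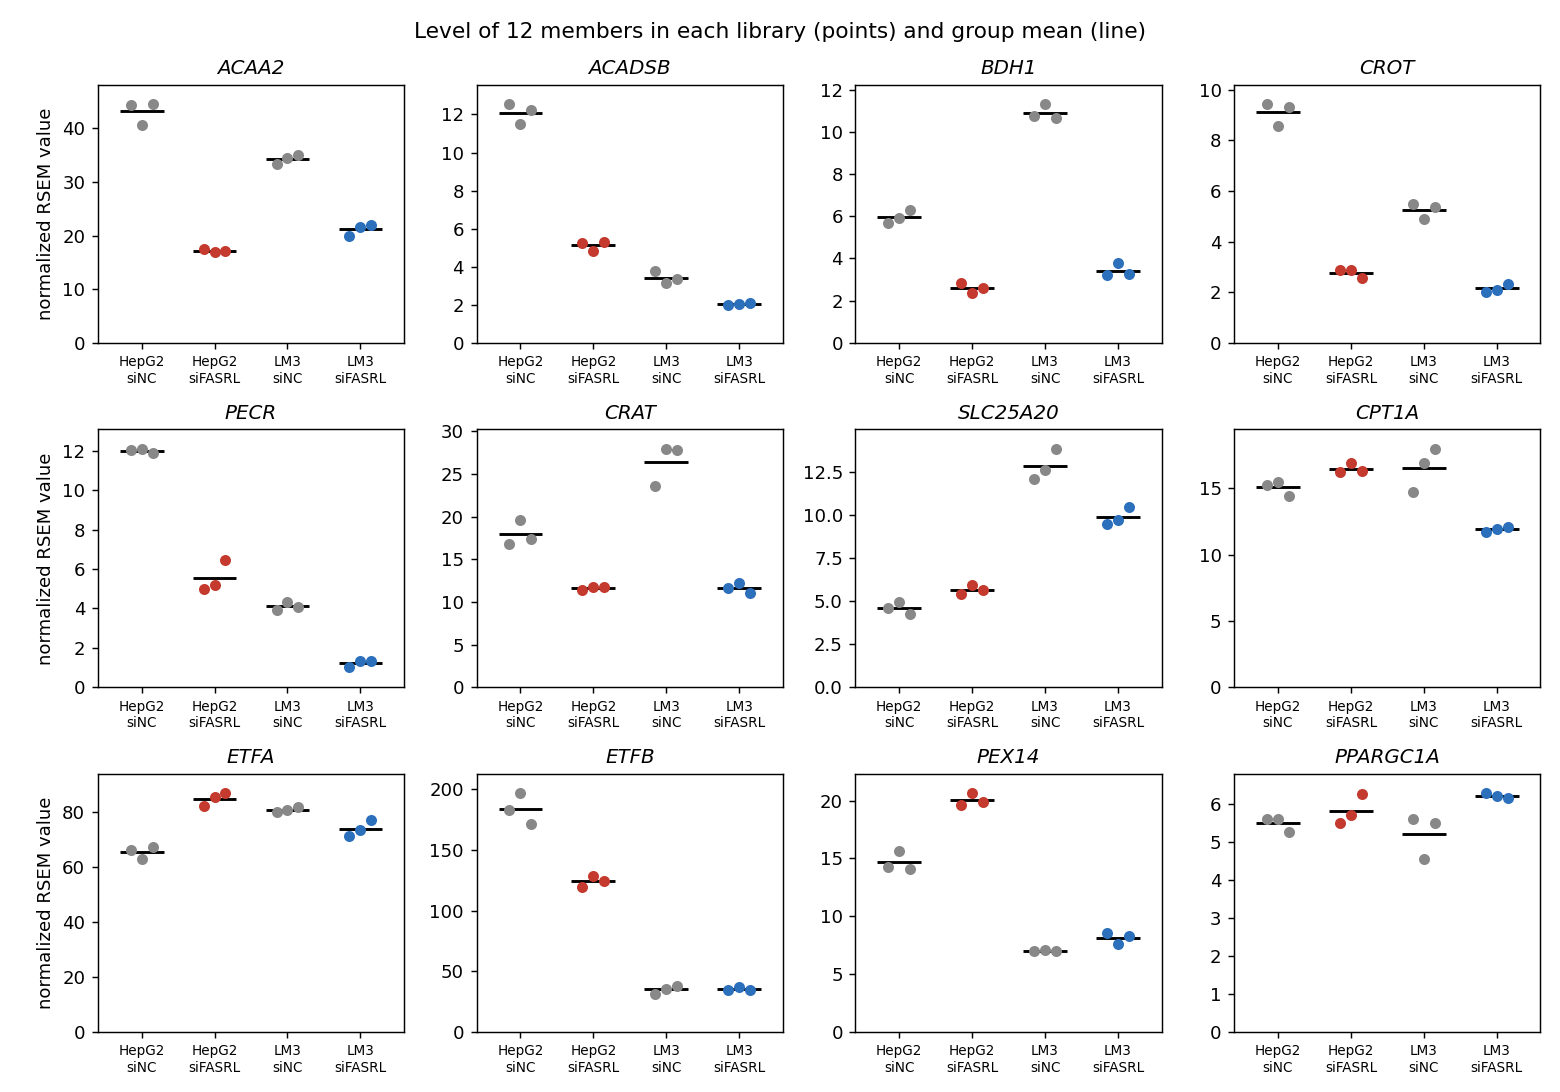
Normalized RSEM values (vertical axes, from 0) of 12 members are shown for each library as points with the group mean as a line, siNC in gray and siFASRL in red (HepG2) or blue (LM3). CROT, PECR, BDH1 and CRAT are low in all siFASRL libraries of both lines, whereas SLC25A20, CPT1A and ETFA lie above the controls in HepG2 and below them in LM3.

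Among the listed peroxisomal members, CROT and PECR fell in both lines. CROT, the carnitine octanoyltransferase that readies shortened chains for export, was at 9.44, 8.59 and 9.32 in HepG2 siNC and 2.88, 2.88 and 2.57 in HepG2 siFASRL, and at 5.49, 4.88 and 5.37 in LM3 siNC and 2.01, 2.10 and 2.33 in LM3 siFASRL. All 6 siFASRL libraries were below all 6 siNC libraries. CROT fell by 1.42 (SE 0.06, limma adjusted p = 8.36e-08) in HepG2 and by 0.99 (SE 0.06, limma adjusted p = 2.49e-06) in LM3. PECR, a trans-enoyl-CoA reductase, was at 12.02, 12.11 and 11.88 in HepG2 siNC and 4.97, 5.20 and 6.48 in HepG2 siFASRL, and at 3.93, 4.35 and 4.09 in LM3 siNC and 1.02, 1.33 and 1.32 in LM3 siFASRL. The level was lower in LM3 at the start and fell to near the filter's minimum of 1. PECR fell by just under 1 (SE 0.08, limma adjusted p = 3.18e-06) in HepG2 and by 1.21 (SE 0.07, limma adjusted p = 1.62e-06) in LM3, and the added 1 understates a change at such low values.

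The 250 bases before the start of CROT and PECR are shown as examples of peroxisomal members that fell in both lines, and were chosen after their values were seen. They are from the RefSeq promoter table (GRCh38.p14), at chr7:87345414-87345663 on the plus strand for CROT and chr2:216081810-216082059 on the minus strand for PECR, with capitals for a CCAAT box (CCAAT) or an E-box (CACGTG).
CROT: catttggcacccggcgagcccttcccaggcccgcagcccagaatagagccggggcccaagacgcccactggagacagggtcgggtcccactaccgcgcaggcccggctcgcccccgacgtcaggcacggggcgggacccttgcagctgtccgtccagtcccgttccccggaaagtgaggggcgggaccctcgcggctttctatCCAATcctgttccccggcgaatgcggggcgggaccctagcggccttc
PECR: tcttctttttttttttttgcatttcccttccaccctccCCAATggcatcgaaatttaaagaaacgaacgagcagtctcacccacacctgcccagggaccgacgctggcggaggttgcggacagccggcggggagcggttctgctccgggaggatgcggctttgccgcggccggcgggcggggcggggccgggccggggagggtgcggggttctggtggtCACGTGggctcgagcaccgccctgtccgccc

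Promoter entries were matched for 27 of the 35 listed members, and both strands of the 250 bases were searched. These members had 37 entries, since some are in the table more than once. CCAAT was found in 10 of the 37 entries (27%, of 9 members) and in 32% of all 35116 promoters, and CACGTG in 3 entries (8.11%, of 3 members) and in 6.34% of promoters. A direct repeat of AGGTCA with 1 free base between, known from PPAR and RXR (0.0171% of promoters), TCAAGGTCA (0.319%), TGACGTCA (1.65%) and the NRF1 motif (1.03%) were not found in these windows of the members. A match is a description of letters only.

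The enzymes of the peroxisomal spiral fell together. HSD17B4, the bifunctional protein for branched and very long chains, was at 51.4, 46.3 and 52.0 in HepG2 siNC and 31.3, 32.8 and 31.6 in HepG2 siFASRL, and at 46.1, 40.6 and 44.3 in LM3 siNC and 25.4, 26.8 and 26.5 in LM3 siFASRL. The siFASRL libraries were low in both lines, with no overlap with the controls of their line. HSD17B4 fell by 0.63 and by 0.71. ACAA1, the peroxisomal thiolase, was at 24.5, 27.5 and 24.9 in HepG2 siNC and 16.2, 16.4 and 16.6 in HepG2 siFASRL, and at 18.2, 22.2 and 23.3 in LM3 siNC and 10.8, 11.4 and 11.1 in LM3 siFASRL. The knockdown groups were tight and below the controls. ACAA1 fell by 0.61 (SE 0.06, limma adjusted p = 9.34e-06) in HepG2 and by 0.87 (SE 0.08, limma adjusted p = 2.50e-05) in LM3. EHHADH, the other bifunctional enzyme, fell by 0.74 and by 0.54, SCP2, a thiolase and sterol carrier, by 0.36 and by 0.68, and DECR2, a dienoyl-CoA reductase, by 0.43 and by 0.51. The LM3 call of EHHADH was lost after quantile normalization (-0.16, adjusted p = 0.0557).

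ABCD3, a transporter that brings fatty acids into the peroxisome, was at 31.7, 28.1 and 30.2 in HepG2 siNC and 21.3, 21.9 and 22.0 in HepG2 siFASRL, and at 43.6, 41.5 and 41.7 in LM3 siNC and 21.3, 25.6 and 25.0 in LM3 siFASRL. The controls were higher in LM3 and the knockdown libraries were near each other. ABCD3 fell by 0.44 (SE 0.06, limma adjusted p = 7.63e-05) in HepG2 and by 0.80 (SE 0.07, limma adjusted p = 1.74e-05) in LM3, with a HepG2 value of -0.29 after centring. ACOX2, the oxidase for branched chains and bile acid intermediates, was at 2.68, 3.01 and 2.81 in HepG2 siNC and 1.1, 1.35 and 0.70 in HepG2 siFASRL, and in LM3 at 0.00, 0.05 and 0.13 under siNC and 0.00 in all siFASRL libraries. ACOX2 was thus measurable in HepG2 and listed at or near 0 in LM3. It fell by 0.91 (SE 0.11, limma adjusted p = 2.66e-05) in HepG2, with -1.39 for a pseudocount of 0.1 and -0.58 for quantile normalization.

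Of the members found in both organelles, all 3 that were listed fell in both lines. CRAT, the carnitine acetyltransferase, was at 16.8, 19.6 and 17.4 in HepG2 siNC and 11.4, 11.7 and 11.8 in HepG2 siFASRL, and at 23.6, 28.0 and 27.7 in LM3 siNC and 11.6, 12.2 and 11.1 in LM3 siFASRL. The siFASRL levels of the lines were alike although the control levels were not. CRAT fell by 0.58 (SE 0.07, limma adjusted p = 2.40e-05) in HepG2 and by 1.12 (SE 0.07, limma adjusted p = 3.31e-06) in LM3. ECI2, an enoyl-CoA isomerase, fell by 0.34 and by 0.71. AMACR, which racemizes branched acyl-CoA, fell by 0.61 and by 0.50. Exons of the readthrough gene C1QTNF3-AMACR share 57% of the AMACR exon bases in GENCODE, so the AMACR value is uncertain.

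Peroxins, which build the peroxisome and import its enzymes, went another way from those enzymes. PEX14, the docking protein of the import machinery, was at 14.3, 15.7 and 14.1 in HepG2 siNC and 19.6, 20.6 and 19.9 in HepG2 siFASRL, and at 7.03, 7.05 and 6.97 in LM3 siNC and 8.52, 7.56 and 8.25 in LM3 siFASRL. All knockdown libraries were above the controls of their line. PEX14 rose by 0.43 (SE 0.06, limma adjusted p = 9.84e-05) in HepG2 and by 0.18 (SE 0.06, limma adjusted p = 0.0145) in LM3, where the call was lost without siFASRL replicate 1 or 3 (adjusted p = 0.0612 and 0.0511) and the value was 0.29 with median-of-ratios scaling and 0.37 with quantile normalization. PEX19, a carrier of membrane proteins, rose by 0.32 and by 0.17, and its LM3 call was lost without any one of the siFASRL replicates (adjusted p = 0.0865, 0.145 and 0.0682) or siNC replicate 2 or 3 (adjusted p = 0.125 and 0.147), without a filter (adjusted p = 0.0616) and with a pseudocount of 0.1 (adjusted p = 0.0512). With the replicate block the LM3 call of PEX19 was lost too (limma adjusted p = 0.057). PEX10, of the receptor export complex, rose by 0.17 and by 0.21, and its HepG2 call was lost without HepG2 siFASRL replicate 3 or HepG2 siNC replicate 1 (adjusted p = 0.156 and 0.152). Exons of RER1 on the opposite strand share 50.9% of the PEX10 exon bases, and use of strand in the counting is not given in the sources used here, so PEX10 is uncertain too. Smaller shares were 18.8% for PEX19 (AL139011.2, same strand), 22.2% for ACAA1 (DLEC1, opposite strand) and 16.5% for CPT2 (AL606760.2, opposite strand). They were 14.9% for ETFDH (PPID, opposite strand) and 10.5% for ACAA2 (AC090227.1, same strand). Their part in these values was not tested.

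PEX11A, which acts in peroxisome division, was the listed peroxin that fell, by 0.49 in HepG2 and by 0.39 in LM3. The LM3 value was 0.00 after quantile normalization (adjusted p = 0.998). The import receptors PEX5 and PEX7 were not analysed here.

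Neither of the remaining members belongs to these organelles. ABCD4, a lysosomal transporter for cobalamin, fell by 0.52 and by 0.62. PPARGC1A, a coactivator of oxidative genes, was at 5.61, 5.61 and 5.28 in HepG2 siNC and 5.50, 5.72 and 6.28 in HepG2 siFASRL, and at 5.61, 4.56 and 5.51 in LM3 siNC and 6.30, 6.22 and 6.18 in LM3 siFASRL. The groups overlapped in HepG2 and were apart in LM3. Its log2 fold change was 0.07 (SE 0.06, limma adjusted p = 0.288) in HepG2, and it passed there after centring (0.22, adjusted p = 0.00634) and quantile normalization (0.26, adjusted p = 0.00175). PPARGC1A rose by 0.22 (SE 0.07, limma adjusted p = 0.02) in LM3, a call lost without any one of the siFASRL replicates or siNC replicate 2, with adjusted p of 0.0601, 0.0527, 0.0518 and 0.0535, and its value was 0.14 without the last and 0.46 with quantile normalization.

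The difference between the lines in effect was tested with an interaction term in a fit of all 12 libraries. It passed for 15 of 35 members (limma, adjusted p under 0.05), a share of 42.9% beside 46.7% of all 8285 tested genes. Genes at or near 0 in one line, such as ACOX2, can pass through the other line alone. Over the 7349 genes tested in both lines the share was 42.5%, with 14 of 34 members, so the members were near the background. The lowest p-values were those of ACAA2, ETFA, ACADSB, SLC25A20, CPT1A and ACOX2. The LM3 effect minus the HepG2 effect was 0.61 for ACAA2 (limma adjusted p = 2.29e-05) and 0.56 for ACADSB (limma adjusted p = 9.88e-05), which fell further in HepG2. It was -0.50 for ETFA (limma adjusted p = 5.72e-05), -0.60 for SLC25A20 (limma adjusted p = 1.36e-04) and -0.56 for CPT1A (limma adjusted p = 2.02e-04). For ACOX2 it was 0.83 (limma adjusted p = 2.05e-04), where the LM3 libraries were at or near 0 and could not fall, so that this value follows from the HepG2 libraries and the added 1.

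**Figure D4:**
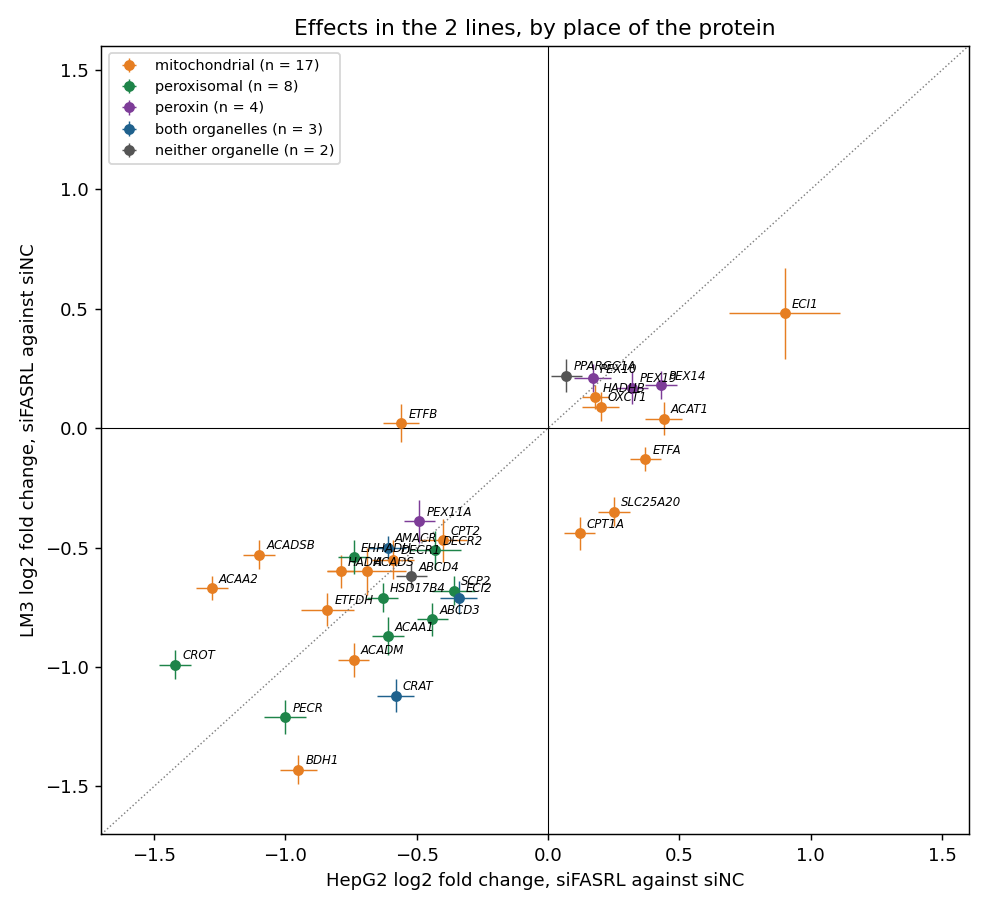
Each point is one of 34 members tested in both lines, with its log2 fold change in HepG2 (horizontal axis) and LM3 (vertical axis), bars of 1 SE and color for the place of the protein; the dotted line marks equal effects. The 8 peroxisomal members lie at the lower left, and SLC25A20, ETFA and CPT1A lie at the lower right, with effects of 0.25, 0.37 and 0.12 in HepG2 and -0.35, -0.13 and -0.44 in LM3.

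The lines also started from different levels. Under siNC, 17 of 35 members were lower in LM3 than in HepG2 and 12 were higher (limma, adjusted p under 0.05), against 42.1% lower and 41.5% higher among 8285 genes. ETFB was lower in LM3 by a log2 difference of -2.37, OXCT1 by -2.03, ACADSB by -1.57 and PECR by -1.34, while SLC25A20 was higher by 1.30, SCP2 by 0.82 and BDH1 by 0.77. ACOX2 was at or near 0 in LM3 siNC, so no size is given for it. The siNC libraries also enter the tests of siFASRL within each line, so these differences are not independent of the interaction.

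Other genes of the pathways were read from 5 further lists with 106 genes in all, of which 64 were listed. In HepG2, 38 of 60 tested genes fell and 19 rose, with a median of -0.45, and in LM3 36 of 54 fell and 8 rose, with a median of -0.40. Over all tested genes the shares were 44.3% lower and 44.8% higher in HepG2 and 43.5% and 33.9% in LM3, with medians of 0.10 and -0.06. Of the tested genes of these lists, 5 in HepG2 and 1 in LM3 reached the filter's minimum of 1 in libraries of a single group alone, which fixes their direction, and no tested member did. For fatty acid uptake and activation, 10 of 14 tested genes fell and 3 rose in HepG2, and 8 of 12 fell and 1 rose in LM3. DBI, which binds acyl-CoA, was at 176, 163 and 187 in HepG2 siNC and 67.6, 74.4 and 67.3 in HepG2 siFASRL, and at 284, 271 and 283 in LM3 siNC and 96.6, 104 and 102 in LM3 siFASRL. The siFASRL libraries were far below the controls in both lines. DBI fell by 1.32 (limma adjusted p = 2.16e-07) and by 1.46 (limma adjusted p = 2.42e-07). ACSL5, an acyl-CoA synthetase, rose by 1.40 in HepG2, from 8.16, 8.0 and 6.79 to 22.9, 21.4 and 21.0, while in LM3 it was at 1.21, 1.15 and 1.12 under siNC and 0.44, 0.3 and 0.35 under siFASRL, where it passed the filter through siNC alone. FABP1, the fatty acid binding protein of the liver, fell by 2.49 in HepG2 and was listed at 0 in all LM3 libraries. ACSF2 fell by 0.78 and by 1.11.

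Among other oxidation and ketone enzymes, 7 of 10 fell and 2 rose in HepG2 and 8 of 10 fell and 1 rose in LM3. HIBADH, of valine breakdown, fell by 0.94 and by 1.07, and ACOT1, an acyl-CoA thioesterase with near-identical relatives, by 0.70 and by 1.21. Of the other genes of peroxisome assembly and matrix, 12 of 14 fell and 2 rose in HepG2 and 10 of 13 fell and 1 rose in LM3. LONP2 rose by 0.32 and by 0.26, and SLC25A17 rose by 0.20 in HepG2 with a value of 0.00 in LM3. TMEM135 fell by 1.44 and by 0.71. EPHX2, a peroxisomal and cytosolic epoxide hydrolase, was at 2.8, 3.35 and 2.96 in HepG2 siNC and 0.6, 0.49 and 0.71 in HepG2 siFASRL, and fell by 0.75 in LM3. AGXT, which clears glyoxylate, was at 3.02, 4.3 and 2.59 in HepG2 siNC, at 0.1, 0.15 and 0.28 in HepG2 siFASRL and at 0.03 or less in LM3. In HepG2, EPHX2 and AGXT were at 1 or more in the siNC libraries alone, so they passed the filter through that group and the size of their falls depends on the added 1.

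Regulators were mixed and near the shares over all genes, with 9 of 17 lower and 8 higher in HepG2 and 9 of 16 lower and 4 higher in LM3. CREB3L3, a liver transcription factor of lipid metabolism, was at 7.13, 5.53 and 7.13 in HepG2 siNC and 1.31, 1.13 and 1.2 in HepG2 siFASRL, and at 25.1, 19.8 and 19.2 in LM3 siNC and 2.68, 3.35 and 2.38 in LM3 siFASRL. Every siFASRL library was below every siNC library. CREB3L3 fell by 1.77 (limma adjusted p = 1.64e-07) and by 2.55 (limma adjusted p = 6.06e-07). PPARG rose by 1.03 in HepG2, from 5.73, 6.16 and 5.83 to 13.1, 13.4 and 12.8, and had a value of -0.06 in LM3 (limma adjusted p = 0.426). ACACB, which makes the malonyl-CoA that restrains CPT1, fell by 0.60 and by 1.2. Among PPARA target genes outside oxidation, which share FABP1, CREB3L3 and ACSL1 with the lists above, 3 of 8 fell and 4 rose in HepG2 and 3 of 5 fell and 1 rose in LM3. TXNIP, a thioredoxin-binding protein, rose by 1.37 in LM3, from 25.7, 26.2 and 23.4 to 66.4, 65.2 and 67.9, with 0.06 (limma adjusted p = 0.351) in HepG2.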

How the data were processed

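RNA-seq of 12 libraries was used. The authors filtered the reads, mapped them with HISAT2, aligned them with Bowtie2 to a reference coding gene set and computed RSEM values, which they deposited as normalized values with 2 decimals (FPKM or TPM is not stated). The submitters' notes name hg19, whereas the chromosome accessions in the files are those of GRCh38, so positions were taken from RefSeq (GRCh38.p14). 6 further columns repeat LM3 libraries and were not used. The authors' own tests were not used.

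Values were tested with limma (3.58.1, R 4.3.3) on log2(value + 1). A gene was tested where 3 or more libraries of the fit reached 1, with Benjamini-Hochberg adjustment over all genes tested. The lines were fitted separately, and the difference between them in one fit of 12 libraries. The fits were tested on simulated data. Tables were read with pandas (2.3.3) and figures drawn with matplotlib (3.10.9) in Python (3.11.15). The members and gene lists were chosen with earlier results of these data known. Genes were named by a rule: per line, the members whose log2 fold change was 1 or more in size, or the 8 largest if fewer than 8 passed; the 6 with the lowest interaction p; and members by role; others were added after their values were seen. Depth is unknown, so precision comes from 3 replicates. Alternatives were the pseudocount, the filter, the scaling, the replicate block, a joint fit, the fold threshold, centring, organelle membership and each library left out.

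The near-empty stretch of HepG2 effects was located as the windows 0.1 wide on the log2 scale that held the fewest genes whose mean was 5 or more. A window 0.16 wide was also tried, after an earlier description of the stretch had been seen.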

Additional observations from a re-analysis of the deposited data

Results flagged for a closer look

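The effect of siFASRL differed between the cell lines for 15 members by the limma interaction test. The LM3 effect minus the HepG2 effect, on the log2 scale, was -0.56 for CPT1A, -0.60 for SLC25A20, -0.50 for ETFA, -0.48 for BDH1, -0.41 for ACAT1, -0.32 for SCP2, -0.35 for ABCD3, -0.24 for PEX14, -0.37 for ECI2 and -0.53 for CRAT. It was 0.56 for ACADSB, 0.61 for ACAA2, 0.58 for ETFB, 0.83 for ACOX2 and 0.43 for CROT. With 46.7% of all tested genes passing the same test, a difference between the lines was common in these data. For ACOX2, LM3 values of 0.13 or less left no room for a fall.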

How the results depend on the processing

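The counts of members lower (24 in HepG2, 25 in LM3) lay between 22 and 25 under the other pseudocount, no filter, both scalings, the joint fit and each library left out. When the log2 fold change also had to be 1 or more in size, 3 members were lower and 0 higher in HepG2, 3 lower and 0 higher in LM3, 0 differed between the lines in effect and 6 differed under siNC, because this rule asks for larger changes. With a pseudocount of 0.1 and this rule together, tried after seeing the data, 6 were lower and 0 higher in HepG2 and 5 lower and 0 higher in LM3, since the smaller pseudocount widens changes of low values. With each library left out in turn, the members higher were 8 to 9 in HepG2 and 1 to 7 in LM3, so the LM3 count rests on single libraries: it was 2, 2 and 1 without LM3 siFASRL replicates 1, 2 and 3, and 3 without LM3 siNC replicate 2. It was 3 with a pseudocount of 0.1 and 7 with median-of-ratios scaling, and the cause was not tested. Centring the HepG2 effects at -0.15, the middle of the near-empty stretch, gave 24 lower and 11 higher, and at -0.12, the middle found with a wider window tried after seeing the data, also 24 and 11.

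The median mitochondrial effect was -0.49 in HepG2 with quantile normalization, and -0.36 and -0.33 in LM3 with median-of-ratios scaling and quantile normalization. It ranged from -0.59 to -0.51 in HepG2 and from -0.52 to -0.40 in LM3 with each library left out. The LM3 value of ETFB (0.02) was -0.04 with quantile normalization and from -0.06 to 0.08 with each library left out, negative without LM3 siNC replicate 1 (-0.06) or LM3 siFASRL replicate 2 (-0.02). That of ACAT1 (0.04) was -0.04 with quantile normalization and from -0.02 to 0.09 with each library left out, negative without LM3 siFASRL replicate 3. Neither passed the test, and the causes were not tested. Scaling moved the split of all LM3 calls from 3254 lower and 2536 higher to 2769 and 3140 by the median of ratios and 2598 and 2808 by quantiles.

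Whether the replicate numbers pair the libraries is not known. Deviations of same-numbered libraries correlated from -0.195 to 0.362 in HepG2 and -0.163 to 0.091 in LM3. Those of libraries with other numbers correlated from -0.448 to 0.289 and from -0.113 to 0.175. With 3 replicates per group, these overlapping ranges cannot decide the question. With the replicate block, 24 members were lower and 9 higher in HepG2, 24 lower and 4 higher in LM3, and 15 differed between the lines. The LM3 calls of ETFA and PEX19 were lost with the block (limma adjusted p = 0.0749 and 0.057).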
